A study of Drosophila melanogaster with 999 samples.

Results

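Glycolysis-high and glycolysis-low motoneurons of late Drosophila embryos were compared. Cells were chosen by their reads of 4 glycolytic genes. A cell was taken as high if it had at least 10 reads of each of Pglym78, Tpi, Gapdh1 and Pgk, and as low if at least 3 of these 4 genes were at 0 reads. Cells with at least 10 reads of Vmat, the vesicular monoamine transporter, were left out, 79 in number. High cells made up 53.45% of all cells in the deposited table and low cells, 88 in number, 8.81%. Of the cells without Vmat, 58.04% were high (exact binomial interval 54.8 to 61.3%), 9.57% low (7.74 to 11.7%) and 32.4% neither (29.4 to 35.5%). Intervals at 95% here cover counting error only. Among the cells left out, 43 met the high rule and 10 the low rule.

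The cells were single RFP-positive neurons sorted from embryos aged 19 to 20 h that carried OK371-GAL4 and UAS-RFP. They were DAPI negative and DRAQ5 positive and filled 16 plates for SMART-Seq2, in which the full length of a message is read and molecules carry no identifiers. OK371-GAL4 is a driver active in glutamatergic neurons, a class that holds the fly motoneurons but also other glutamatergic cells. The reaction also held primers against 7 Hox genes. All cells carried the same genotype and no treatment, and no label names an embryo, so the cells form 1 pooled sample and cells are not replicates: no p-value was computed, and plates are technical batches.

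Glycolysis splits glucose into pyruvate in the cytosol and yields a little ATP without oxygen. Pyruvate is then either reduced to lactate, which returns NAD+ to the pathway, or passed to the mitochondria, where the citric acid cycle and the respiratory chain feed the ATP synthase. Neurons spend much of their ATP on ion pumps and on filling and recycling synaptic vesicles, and Drosophila embryos raise the transcripts of glycolytic enzymes and of lactate dehydrogenase together in mid-embryogenesis under the nuclear receptor ERR.

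The 4 genes that chose the cells encode consecutive or neighbouring steps of the lower pathway. Pglym78 is a phosphoglycerate mutase, Tpi is triose phosphate isomerase, Gapdh1 is a glyceraldehyde-3-phosphate dehydrogenase and Pgk is phosphoglycerate kinase. They lie at separate places in the genome (BDGP6.54): Pglym78 on 3R from 29148248 to 29149901, Tpi on 3R from 30132981 to 30134599, Gapdh1 on 2R from 7791901 to 7793380 and Pgk on 2L from 2746880 to 2753068. Their values follow from the rule and are given as a description. In high cells the normalized count, defined with the comparison of genes, had a median of 618.4 for Pglym78, whose reads ran from 12 to 17775. The median was 639.96 for Tpi (11 to 18677 reads), 786.1 for Gapdh1 (13 to 20876 reads) and 304.4 for Pgk (10 to 8362 reads). Most high cells thus lay far above the threshold: in 75.3% of them every one of the 4 genes had at least 100 reads, and in 25 cells the lowest gene had 10 to 19 reads. Just outside, 25 cells had a lowest gene of 5 to 9 reads. The 4 genes took a median of 0.196% of the reads outside ribosomal RNA there, against 0.223% in the 25 cells just inside. In the low group 43 cells had all 4 genes at 0, and 45 cells had 1 gene above 0, with a median of 10 reads of that gene. The next cells, with 2 genes at 0, numbered 74 and had a median share of 0.0700%. The threshold of the high group therefore cut through a continuous range.

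High cells were found on all plates, as 46.2 to 71.9% of the cells without Vmat of a plate, and low cells as 0 to 21.2%. The groups differed in how much was sequenced. The median of total reads was 373054 in high, 316122 in neither and 238875 in low cells, and the median number of genes with at least 1 read was 1694, 1242.5 and 1064.5. After all cells were thinned at random to 50000 reads the medians were 1438.5 genes in high and 852.5 in low cells, so the order of these groups held at equal total reads. Total reads, here and in the comparisons below, include ribosomal RNA. Reads outside it had a median of 239848 in high and 119324 in low cells, and thinning did not make these equal. The median share of reads on ribosomal RNA was 30.2% in high, 54.3% in neither and 52.7% in low cells. On the 9 plates with at least 5 cells of each group, high cells had more genes in 9 (by 204.5 to 850 in the medians) and the higher ribosomal RNA share in 2. Genes detected and ribosomal RNA share thus moved with the groups, and their part in the results below was not tested. Fewer messages per cell and a poorer capture cannot be told apart in these data.

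**Figure D1:**
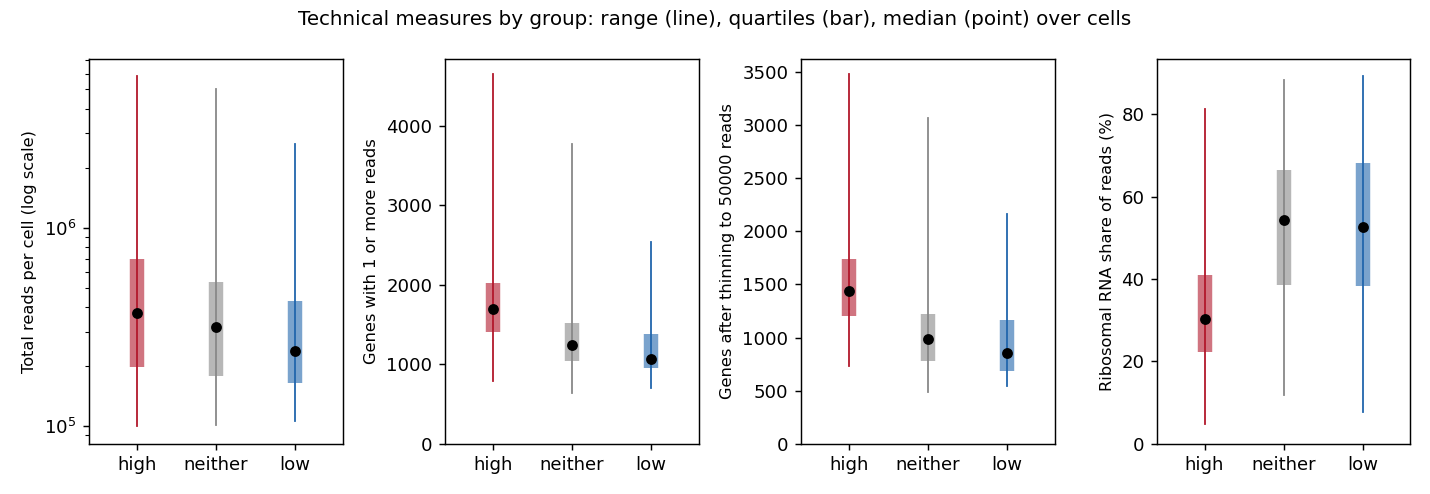
Total reads (log scale), genes with at least 1 read, genes after thinning to 50000 reads and ribosomal RNA share in percent, for high, neither and low cells. Thin lines are the range, bars the quartiles and points the median over cells; high cells had the most genes, with a median of 1694 against 1064.5 in low cells, and the lowest ribosomal RNA share.

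The neuronal markers were read to check the cells. VGlut, the vesicular glutamate transporter that defines this population, reached 10 reads in 97.9% of high cells (96.3 to 98.97%) and 72.7% of low cells (62.2 to 81.7%), and it was higher in the high cells on 9 of 9 plates. Neuronal elav had 10 reads in 82.96% and 77.3%, and Syt1, the calcium sensor of vesicle release, in 99.4% and 97.7%. The neuronal genes fne, nSyb and brp had 10 reads in 99.1, 99.4 and 94.8% of high cells and in 84.1, 80.7 and 84.1% of low cells. Most low cells were therefore neurons by these markers, with VGlut, fne, nSyb and brp in fewer of them. The shares of the groups were closest for Syt1 and elav. Of the markers of other cells only part was measured: 6 of 15 glial, 4 of 17 muscle, 3 of 11 hemocyte and fat body, 3 of 10 epidermal and tracheal, and 4 of 20 neuroblast and cell cycle genes. repo, Mhc and dpn, the defining markers of glia, muscle and neuroblasts, were not analysed here. The summed glial markers ranged from 0 to 0.760% of the reads outside ribosomal RNA in high cells and from 0 to 0.240% in low cells, and the muscle markers from 0 to 0.299% and from 0 to 0.384%. The hemocyte and fat body markers reached 1.84% and 0.0376%, the epidermal and tracheal ones 0.169% and 0.145%, and the neuroblast and cell cycle genes 0.366% and 0.128%, and all 3 had a median of 0 in both groups. The summed glial markers were higher in high cells on 8 of 9 plates. The glial moody had 10 reads in 5 high and 2 low cells, and Gs2 in 4 and 0, whereas nrv2 had 10 reads in 66.1% of high and 37.5% of low cells and Eaat2 in 21.7 and 9.09%. With covariates these last shares differed by -0.0833 points for nrv2 and -1.44 points for Eaat2. The part of these markers in the results was not tested.

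To compare the groups across genes, counts were divided by a size factor from the reads outside ribosomal RNA and outside the 4 rule genes, and log2(normalized count + 1) was taken. The adjusted difference of a gene is the least squares difference of high minus low cells with log10 total reads, log10 genes detected and plate as covariates, in log2 units. The unadjusted difference is that of the 2 group means, and the matched one is the mean over 88 pairs of 1 high and 1 low cell of the same plate, chosen for like total reads and genes detected. The pairs still differed, with medians of 1276.5 genes in high and 1064.5 in low cells. Since the pseudocount of 1 sets the size of a difference from 0, a log2 value here is not a plain fold change. Of 7279 genes, 5528 had at least 10 reads in 20 of the high and low cells and were used. Since most of these cells were high, a gene could pass through the high group alone. Rpi and crq, for example, had no low cell at 10 reads. A gene confined to fewer than 20 low cells was left out, so the minimum favoured genes found in high cells. A gene was called at an adjusted difference of at least 1. Then 5.10% of the genes used were higher in high cells, and 95 genes, or 1.72%, were lower. The median over all genes was -0.06 adjusted, 0.29 unadjusted and 0.08 matched. Every gene called higher was also higher without adjustment, 90.4% of them had a matched difference of at least 1, and 64.5% were higher on all 9 plates. Of the 95 called lower, 71 were lower without adjustment, 32 had a matched difference of -1 or less, and 5 were lower on all 9 plates. Plate differences were not adjusted, and the median over all genes was above 0 on all 9 plates (0.17 to 0.52). Agreement with the plates and with the unadjusted difference was therefore easier to reach for a higher call than for a lower one. In 24 genes called lower the sign came from the adjustment.

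The rest of glycolysis moved with the 4 rule genes. All 10 other glycolytic genes in the table passed the filter, and 8 of them were called higher (background 5.10%), each higher on 9 of 9 plates. Their median adjusted difference was 4.95, against -0.06 over all genes, with 5.62 unadjusted and 5.12 matched. On single plates the median over these genes ranged from 3.82 to 6.04.

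**Figure D2:**
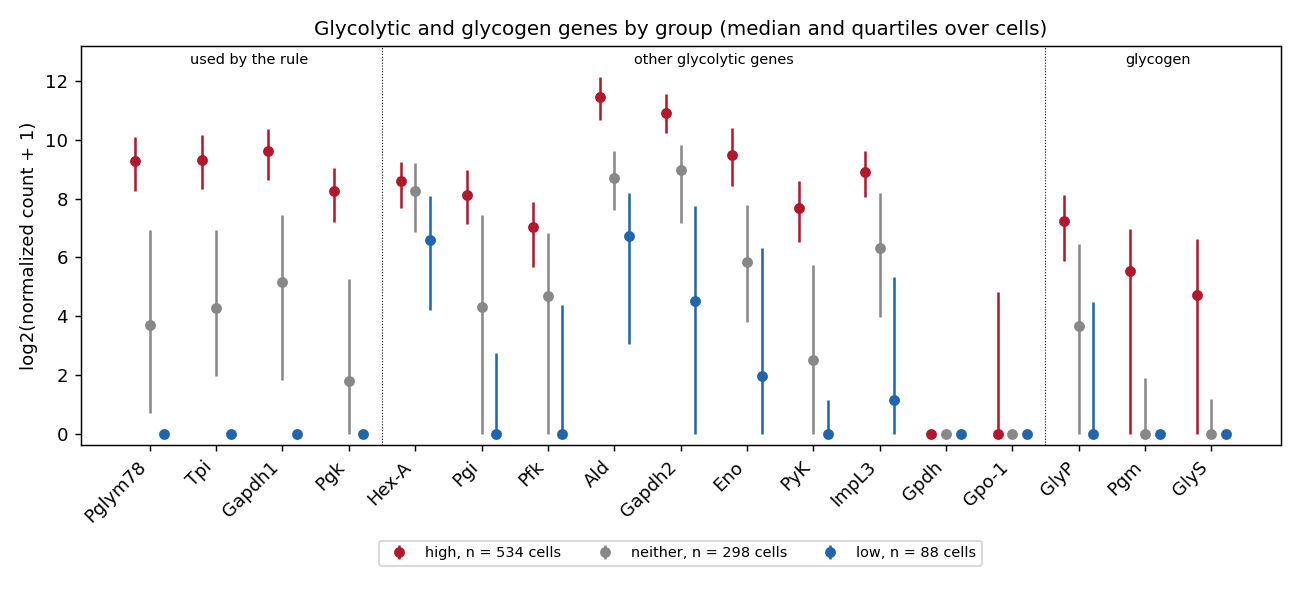
Level of each glycolytic and glycogen gene as log2(normalized count + 1), with points for the median and lines for the quartiles over the high, neither and low cells; dotted lines set apart the genes used by the rule. For all but Gpdh and Gpo-1 the high cells had the highest median, and the neither cells lay at or between the medians of the other 2 groups.

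The upper pathway prepares the sugar. Hex-A, the hexokinase that traps glucose as glucose 6-phosphate, had a median normalized count of 383.87 in high cells (0 to 3372) and 96.4 in low cells (0 to 1334), and 17 of the 88 low cells exceeded the high median. It overlapped the most of the 8 called genes, and its adjusted difference was 3.14. Pgi, which turns glucose 6-phosphate into fructose 6-phosphate, had a median of 279.1 in high cells (0 to 1492) and 0 in low cells (0 to 748.9), where 62 cells (70.5%) held no read. Pfk, the phosphofructokinase at the main control point of the pathway, had a median of 130.7 in high cells (0 to 1067) and 0 in low cells (0 to 586.6). Adjusted differences were 5.64 for Pgi and 4.22 for Pfk. Ald, the aldolase that splits the 6-carbon sugar, was the most abundant gene of the pathway, with a median of 2794 in high cells (24.01 to 10728) and 104.6 in low cells (0 to 1422). No low cell reached even the lower quartile of the high cells for Ald, although 70.5% of low cells had at least 10 reads of it.

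The lower pathway gives pyruvate and lactate. Gapdh2, the second glyceraldehyde-3-phosphate dehydrogenase gene, which lies on the X chromosome (15868145 to 15869661), had a median of 1938 in high cells (20.3 to 8491) and 21.7 in low cells (0 to 2906). Only 2 low cells exceeded the high median. Its coding sequence resembles that of Gapdh1, so that reads may have been divided between them by estimation. Eno, enolase, had a median of 718.4 in high cells (0 to 4281) and 2.93 in low cells (0 to 545.5), and no low cell exceeded the high median. PyK, the pyruvate kinase, had a median of 202.3 in high cells (0 to 2096) and 0 in low cells (0 to 351.6), with 73.9% of low cells at 0. ImpL3, the lactate dehydrogenase (named Ldh in the current annotation), had a median of 480.46 in high cells (0 to 3583) and 1.21 in low cells (0 to 806.4), and 6 low cells exceeded the high median. The adjusted differences were 6.07 for ImpL3, 6.01 for Gapdh2, 5.12 for PyK and 5.05 for Eno. ImpL3 differed by 4.26 to 7.16 on single plates, and Gapdh2 by 5.11 to 9.24. The 2 genes of the list that were not called form the glycerol 3-phosphate shuttle, which returns cytosolic NAD+ by another route. Gpdh, the cytosolic dehydrogenase, had 10 reads in 16.3% of high and 6.82% of low cells and an adjusted difference of -0.11. Gpo-1, its mitochondrial partner, had 10 reads in 29.8% and 14.8% and an adjusted difference of -0.29. Both were higher without adjustment, by 0.50 and 0.80.

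Levels per transcript length came from the TPM values, summed over the transcripts of each gene. In high cells the median TPM was 14050 for Ald and 10251 for Gapdh2, then 4923 for Pglym78, 4580 for Tpi and 4155 for Gapdh1. Eno followed at 2634, ImpL3 at 2385 and Pgk at 1433, and Pgi at 794.98, PyK at 712.9, Hex-A at 705.3 and Pfk at 244.3 were the lowest. The quartiles of neighbours in this order overlapped throughout, as between Ald (7748 to 22635) and Gapdh2 (6628 to 15582). Ald and Gapdh2 exceeded Pfk by far more than the spread between cells, with quartiles of 100.2 to 477.5 for Pfk. In low cells Ald had a median TPM of 321.3, Hex-A of 156.5 and Gapdh2 of 82.9, Eno of 6.64 and ImpL3 of 4.41, and the other 7 of these 12 genes were at 0, so that Hex-A stood in second place there. In the neither cells the median TPM was 1610 for Ald and 2327 for Gapdh2. Where a gene had at least 50 reads, the isoform with the largest mean share was the same in high and low cells for Eno (Eno-RA, 59.7 and 48.998%), Gapdh2 (Gapdh2-RA, 73.5 and 84.7%), Hex-A and ImpL3. It differed for Ald, with Ald1-RC at 36.8% in high cells and Ald1-RM at 33.1% in low cells. It also differed for Pfk (Pfk-RB at 72.05% and Pfk-RC at 51.8%) and GlyP (Glyp-RA at 59.3% and Glyp-RB at 74.96%). Few low cells bear on this, from 12 for Pfk and GlyP to 49 for Hex-A.

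Within the high cells the level was graded. Spearman's rho between the summed level of the 4 rule genes and another gene, over all high cells, which share plates and size factors, was 0.86 for Ald, 0.80 for Eno, 0.71 for Gapdh2 and 0.67 for PyK. It was 0.47 for ImpL3, 0.46 for Pgi, 0.43 for Pfk, 0.14 for Gpdh, 0.06 for Gpo-1 and 0.05 for Hex-A. The 4 rule genes had rho of 0.67 to 0.77 with each other. Of the glycolytic genes, Ald, Eno, Gapdh2 and PyK followed the rule genes most closely, and Gpdh, Gpo-1 and Hex-A hardly at all. Gpdh was at 0 in 81.3% and Gpo-1 in 63.7% of high cells. Since the rule genes also chose these cells, the values are a description only. The rho was 0.64 for ATPsynC and 0.41 for cpx, and 0.07 for RpL32 and -0.04 for elav. It was 0.21 for genes detected and -0.41 for the ribosomal RNA share.

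Sugar stores and entry were mixed. Of 10 genes used, 5 were called higher (background 5.10%) and none lower, and the median adjusted difference was 0.82. The 3 largest belong to glycogen. GlyP, glycogen phosphorylase, which frees glucose 1-phosphate from glycogen, had a median normalized count of 149.77 in high cells (0 to 1061) and 0 in low cells (0 to 668.7), and 7 low cells exceeded the high median. Pgm, phosphoglucomutase, which joins glycogen to glycolysis, had 10 reads in 64.04% of high and 4.55% of low cells. GlyS, glycogen synthase, had 10 reads in 58.1% and 3.41%. Adjusted differences were 3.88 for GlyP, 2.80 for Pgm and 2.59 for GlyS, and all 3 genes were higher on 9 of 9 plates. AGBE, the glycogen branching enzyme, was not called, with 0.0043. The other 2 called were Glut1, a glucose transporter, with 1.39 and UGP, which makes the UDP-glucose for glycogen, with 1.36. Of 7 genes of the pentose phosphate pathway, which draws glucose 6-phosphate away to make NADPH and ribose, 2 were used and neither was called: CG8036 had -0.11 and Rpi -0.05. Of 9 genes of pyruvate entry and gluconeogenesis none was called, and their median was 0.33. The largest were l(1)G0334 with 0.71, CG11876 with 0.68 and CG7430 with 0.59, which encode parts of the pyruvate dehydrogenase complex. Of 12 genes of the hypoxia response and of the known control of glycolysis none was called higher and 1 lower, namely Thor, the fly 4E-BP, with -1.36 adjusted and -1.07 unadjusted and a range of -3.61 to 0.76 over plates. Myc had -0.96 and REPTOR -0.77, and the median of the list was 0.04.

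Many nuclear transcripts of the mitochondrial respiratory chain and ATP synthase were also higher. Of 65 nuclear genes of oxidative phosphorylation, 38 were called higher (background 5.10%) and none lower, and 45 were higher on every plate. Their median adjusted difference was 1.201, against 2.77 unadjusted and 1.80 matched, and the plates ranged from 1.03 to 3.46 without adjustment. COX7A, a subunit of cytochrome c oxidase, had a median normalized count of 121.98 in high cells (0 to 793.5) and 0 in low cells (0 to 275.5). UQCR-11, a subunit of complex III, had a median of 67.5 (0 to 1636) and 0 (0 to 778.96). ATPsynC, the proton ring of the ATP synthase, had a median of 293.8 (0 to 2526) and 5.64 (0 to 720.02). The groups overlapped, with 9, 10 and 4 low cells above the high median. Adjusted differences were 3.17, 2.90 and 2.89. The complexes were split after the values were seen, by the start of the gene symbol. Their counts of calls therefore cannot be weighed against the background of 5.10%. Called higher were 9 of 33 ND- genes of complex I and 5 of 6 UQCR genes of complex III. So were 7 of 7 COX genes of complex IV and 11 of 11 ATPsyn genes of the ATP synthase. Their medians were 0.59, 1.31, 2.48 and 1.74. Listed genes with other symbols were not counted there. Of these, blw (0.96) and Cyt-c1 (0.64) were not called. The others, ox (1.46), RFeSP (1.62), sun (1.71), cype (1.99), levy (2.73) and Cyt-c-p (2.81), were called higher. The 3 transcripts encoded in the mitochondrial genome that were used went the other way without being called: mt:CoI had -0.37, mt:CoII -0.35 and mt:CoIII -0.31, and each was lower on 9 of 9 plates. Of 73 mitochondrial ribosomal proteins, also grouped after the values were seen, none was called and the median was 0.04.

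Of 17 genes of the citric acid cycle and of linked malate enzymes, 3 were called higher (background 5.10%) and none lower. Their median was 0.31 adjusted and 1.85 unadjusted. Mdh2, the mitochondrial malate dehydrogenase, had 10 reads in 67.04% of high and 14.8% of low cells and an adjusted difference of 1.92. Men, malic enzyme, which is not a step of the cycle itself, had 1.91. SdhC, a membrane anchor of succinate dehydrogenase, had 1.61. SdhC was higher on 9 of 9 plates, Mdh2 and Men on 8. Of 11 genes of ATP buffering and of ATP-driven ion pumps, 4 were called higher (background 5.10%). Argk, arginine kinase, which buffers ATP in fly cells, had a median of 312.9 in high cells (0 to 1446) and 67.5 in low cells (0 to 973.9) and an adjusted difference of 1.69. Of the sodium pump, the catalytic subunit Atpalpha had 1.33 and the beta subunit nrv3 had 1.86. The V-ATPase acidifies vesicles and lysosomes and energizes transmitter loading. This group was formed after its values were seen, so its count of calls cannot be weighed against the background of 5.10%. Of its 16 subunits 10 were called higher and 12 were higher on every plate, with a median of 1.25 adjusted and 2.79 unadjusted. Vha13 led the group, with a median of 239.65 in high cells (0 to 1098) and 1.61 in low cells (0 to 418.4). Its adjusted difference was 3.63.

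**Figure D3:**
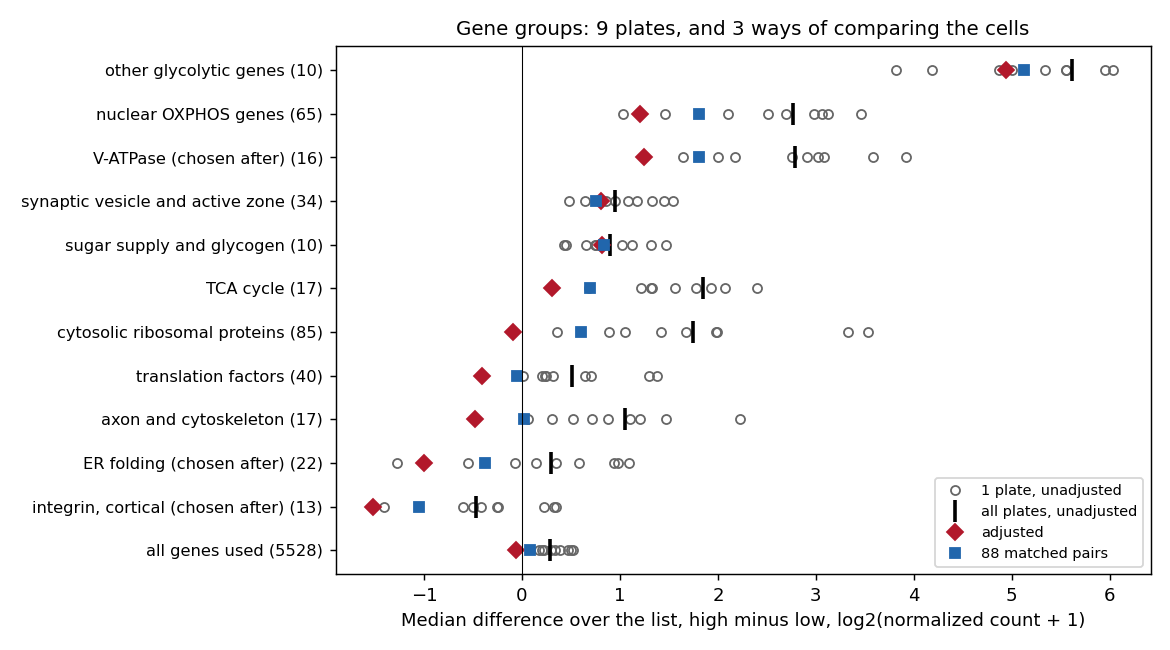
Median difference over the genes of each group, high minus low cells, in log2(normalized count + 1), with the number of genes used in brackets. Open circles are single plates without adjustment (9 plates), black bars all plates without adjustment, red diamonds the adjusted and blue squares the matched comparison; the other glycolytic genes lie apart from the rest at 4.95, whereas ribosomal proteins, translation factors and axon genes pass from above 0 to below 0 with the adjustment.

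Synaptic genes were higher as well. Of 34 genes of synaptic vesicles and active zones 15 were called higher (background 5.10%) and none lower, with a median of 0.81 adjusted, 0.95 unadjusted and 0.76 matched, and 0.48 to 1.54 on single plates. For this group the 3 ways of comparing differed little. Rop, the fly Munc18 that prepares vesicles for fusion, had a median normalized count of 112.3 in high cells (0 to 737.1) and 0 in low cells (0 to 863.97). The clamp protein complexin, cpx, had 461.1 (0 to 2530) and 90.9 (0 to 1236), and VGlut had 453.56 (0 to 2640) and 94.9 (0 to 1679). Low cells above the high median numbered 7, 8 and 12. Adjusted differences were 2.97 for Rop, 2.92 for cpx and 2.81 for VGlut, each higher on 9 of 9 plates. nSyb, the synaptobrevin of neurons, had 2.17. Of 13 pan-neuronal genes 4 were called higher (background 5.10%) and none lower, with a median of 0.52, and elav had -0.85. This list shares VGlut, nSyb and nrv3, all called higher, with the lists above. Of 17 genes of the axon and its cytoskeleton 1 was called higher and 2 lower (backgrounds 5.10 and 1.72%). Called higher was ringer, a microtubule-binding protein, with 2.11. Called lower were stai, the fly stathmin, with -1.07, and Fas2, an adhesion molecule of motor axons, with -1.05. Without adjustment stai had -0.20 and Fas2 -0.55, and they were higher on 5 and 6 of 9 plates. The median of these 17 genes was -0.48 adjusted, 1.05 unadjusted and 0.02 matched, so that its sign depended on the comparison.

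The machinery of protein synthesis and turnover showed the same dependence. Of 85 cytosolic ribosomal proteins 2 were called higher and 1 lower (backgrounds 5.10 and 1.72%), and their median was -0.09 adjusted, 1.75 unadjusted and 0.60 matched. Without adjustment 85 of 85 were higher, and their summed share of reads outside ribosomal RNA had a median of 3.28% in high and 0.873% in low cells. RpS25 had an adjusted difference of 1.33, RpL40 of 1.21 and RpS10b of -1.13, with 0.62 for RpS10b without adjustment. Of 40 cytosolic translation factors 1 was called higher and 3 lower, with a median of -0.41 adjusted, 0.51 unadjusted and -0.06 matched. The start codon factor eIF1 had 1.19, and the eIF3 subunits eIF3g1 and eIF3m had -1.06 and -1.04. Of 32 proteasome genes 1 was called lower, with a median of -0.38 adjusted and 0.46 unadjusted: Prosbeta5, a catalytic subunit, had -1.07, and the ATPases Rpt6 and Rpt3 had -0.89 and -0.80. These genes count among the genes detected, so the adjustment removes part of any difference that all of them share.

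**Figure D4:**
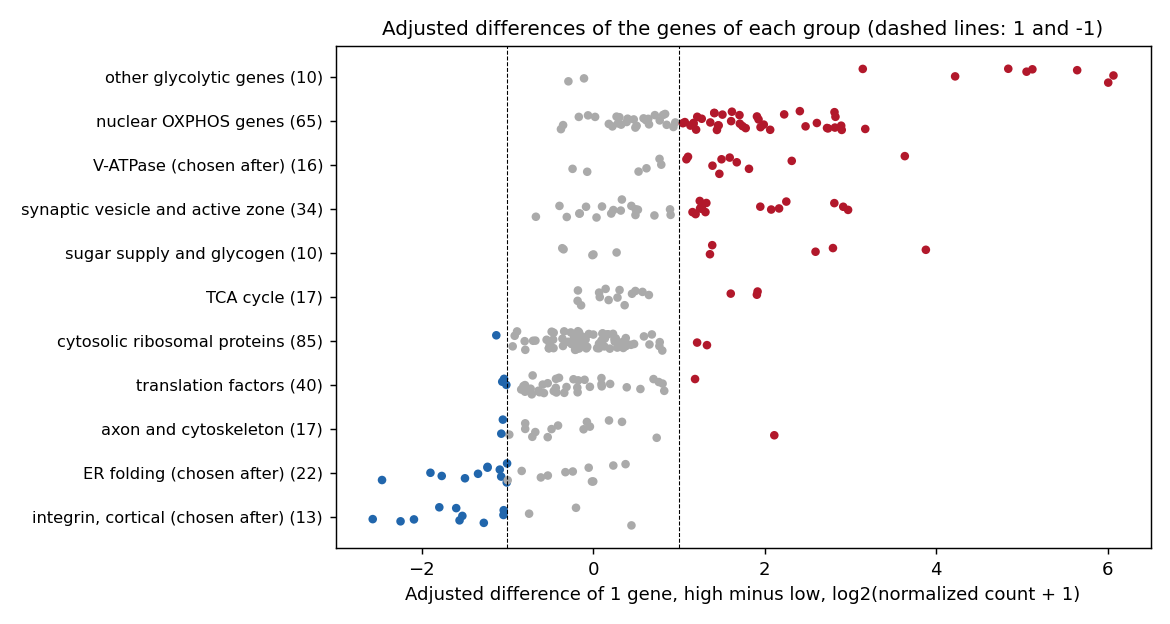
Adjusted difference of each gene (1 point per gene, in log2 units of normalized count + 1) by gene group, with dashed lines at 1 and -1 and called genes in red (higher) or blue (lower). All 8 glycolytic genes called lie at 3.14 or above, and the ER folding and the integrin groups, formed after their values were seen, hold only lower calls.

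Genes called lower were fewer, and few of them kept 1 sign on all plates, where differences were not adjusted. Of 16 heat shock and chaperone genes 1 was called higher and 1 lower (backgrounds 5.10 and 1.72%). Hsc70-3, the fly BiP, which folds proteins in the endoplasmic reticulum, had an adjusted difference of -2.46. Its median normalized count was 4.13 in high cells (0 to 731.7) and 11.7 in low cells (0 to 1029), and 46.4 and 48.9% of the cells had 10 reads, so that the groups overlapped almost wholly. It was higher in high cells on 4 plates and lower on 5, over a range of -6.00 to 1.41. Hsp67Bc, a small heat shock protein gene, had 1.32 and DnaJ-1, an Hsp40, had 0.63. Of 11 stress and early response genes, puc, a phosphatase and target of JNK signalling, had -1.54, the stress factor Xrp1 had -1.22 and kay, the fly Fos, had -0.63. The first 2 of these were called lower (background 1.72%). Genes of folding and secretion in the endoplasmic reticulum were grouped after their values were seen. Of the 22, 11 were called lower (background 1.72%), among them Xbp1, a factor of the unfolded protein response, with -1.90 and crc, the fly ATF4, with -1.76, and the median was -0.999 adjusted, 0.30 unadjusted and -0.38 matched. Of 13 genes of integrin adhesion and the cell cortex, grouped in the same way, 10 were called lower (background 1.72%). Their median was -1.52 adjusted, -0.47 unadjusted and -1.05 matched. Because the ER and the integrin groups were formed from values already seen, their counts of calls cannot be weighed against that background. Akap200, an anchor of protein kinase A, had -2.57 and Msp300, a nesprin, -2.24. Msp300 had a median of 170.02 in high cells (0 to 4564) and 443.2 in low cells (0 to 7213), and 59 of the 88 low cells exceeded the high median.

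Only 5 of the genes called lower were lower on all 9 plates. beat-Ia, a gene of the beaten path family that acts when motor axons leave their bundle, had 10 reads in 18.5% of high and 34.1% of low cells and an adjusted difference of -1.81, with plates from -3.03 to -0.02. smal, a discoidin domain receptor, had 10 reads in 36.7 and 43.2% and an adjusted difference of -1.42. Ubqn, a ubiquilin, had 10 reads in 26.97% of high cells and in 22 of the 88 low cells and an adjusted difference of -1.24, although its shares barely differed. The other two were the ribosomal RNA pseudogenes 18SrRNA-Psi:CR45861 with -1.39 and 18SrRNA-Psi:CR41602 with -1.33, beside the larger ribosomal RNA share of the low cells. Below the threshold, the smallest differences among genes of 1 sign on every plate were those of betaTub56D, a beta tubulin, and of 4 histone genes. betaTub56D had -0.79 adjusted but 1.73 unadjusted, and was higher on every plate. The histone genes His2B:CG33884, His2B:CG33878, His2B:CG33888 and His2B:CG33900 had identical values, since these copies share reads, with -0.79 adjusted and 10 reads in 3.56% of high and 13.6% of low cells.

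The groups also differed in their Hox genes. Hox genes give each segment its identity, and Antp, Ubx, abd-A and Abd-B are those of the trunk. Ubx had 10 reads in 42.7% of high cells (38.5 to 47.02%) and in 11 of 88 low cells (12.5%, 6.41 to 21.3%). For abd-A it was 37.5% (33.3 to 41.7%) against 15.9% (8.98 to 25.2%), and for Antp 40.8% (36.6 to 45.1%) against 19.3% (11.7 to 29.1%). Abd-B, the gene of the last segments, had 22.3 and 12.5%. The intervals of Ubx, abd-A and Antp did not overlap. With covariates, a linear fit of presence or absence gave 47.7 percentage points for Ubx, 34.8 for abd-A, 29.01 for Antp and 15.8 for Abd-B. Such a coefficient is not a difference of observed shares: for Ubx it exceeded the whole share in high cells. High cells had the larger share on 8, 8, 9 and 7 of 9 plates. In log2 units 4 of 8 Hox genes were called higher (background 5.10%), at 3.69 for Ubx, 2.74 for abd-A, 2.18 for Antp and 1.06 for Abd-B. The anterior genes showed no such difference: lab had 10 reads in 7.68 and 11.4%, Dfd in 4.31 and 2.27% and Scr in 3.75 and 7.95%. Any of the 4 trunk genes was found in 59.2% of high cells (54.9 to 63.4%), 47.7% of neither cells and 38.6% of low cells (28.4 to 49.6%), and the adjusted difference of high and low was 31.97 points. It was 20.5 points without covariates and 17.8 without cells over 50% ribosomal RNA. No Hox gene reached 10 reads in 31.1% of high and 46.6% of low cells, so that part of the low cells had no position by this measure. Read from the other side, 64.2% of the cells with a trunk gene were high and 6.91% low, against 53.1% and 13.3% of the 98 cells with lab, Dfd or Scr alone. Hox genes were read with added primers. High cells also had more genes detected, and the part of this in the shares was not tested.

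**Figure D5:**
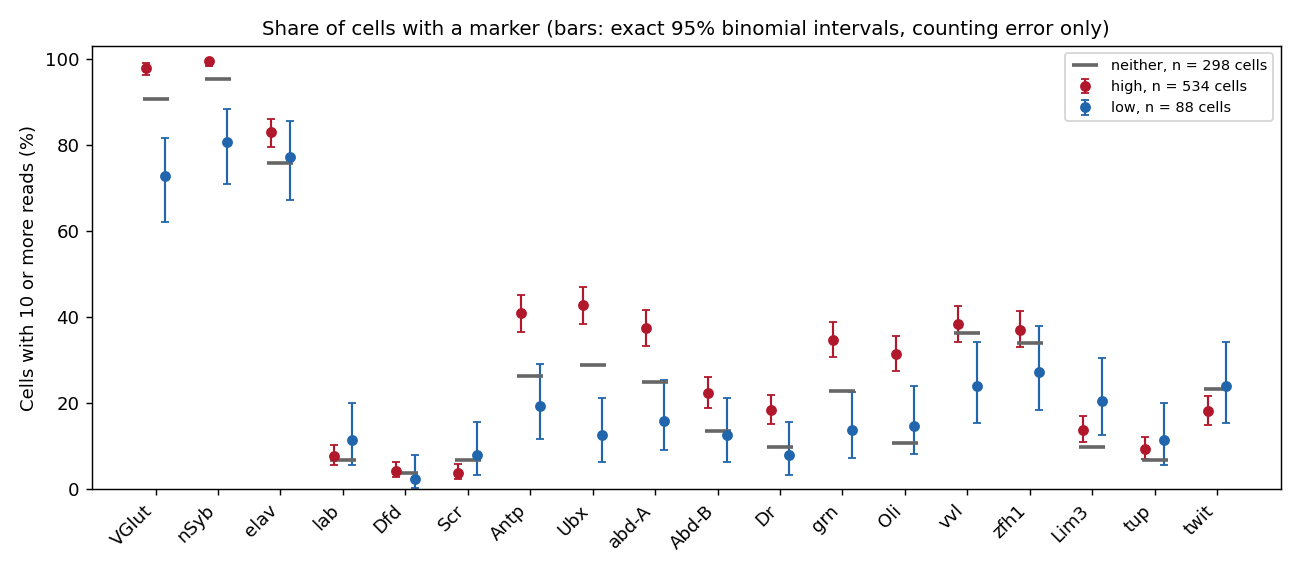
Share of cells in percent with at least 10 reads of a neuronal marker, a Hox gene or a subtype factor, in high and 88 low cells (points, with exact binomial intervals at 95%) and in neither cells (dashes). The intervals of VGlut, nSyb, Ubx, abd-A, Antp, grn, Oli and vvl lie apart in the 2 groups, and those of lab, Dfd, Scr, Lim3, tup, zfh1 and twit overlap.

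Some subtype factors differed too. grn, a GATA factor of dorsally projecting motoneurons, had 10 reads in 34.6% of high cells (30.6 to 38.9%) and 13.6% of low cells (7.25 to 22.6%), with the larger share in high cells on 9 of 9 plates and an adjusted difference of 1.66 log2 units. vvl, a POU domain factor, had 38.4 and 23.9% and an adjusted difference of 1.13. Dr, a homeodomain factor of the muscle segment homeobox type, had 18.4 and 7.95%, or 12.1 points more with covariates. Oli, a bHLH factor of motoneurons, had 31.5 and 14.8%, but the adjusted difference was -0.96 points. Of factors of ventrally projecting motoneurons, Lim3 had 13.7 and 20.5%, whereas exex had 5.81 and 2.27% and HGTX 5.62 and 1.14%. Cells with Lim3, tup or exex made up 19.5% of high and 26.1% of low cells. twit had 18.2 and 23.9% and an adjusted difference in level of -0.90 log2 units. Of 12 subtype factors 2 were called higher (background 5.10%), grn and vvl, and none lower, with a median of 0.00. Cells with both Dr and grn made up 13.7% of high cells (10.9 to 16.9%) and 4.55% of low cells (1.25 to 11.2%). The intervals of the groups overlapped for twit, Lim3 and Dr. Those of grn and Oli lay apart, and those of vvl barely so (34.2 to 42.7% and 15.4 to 34.1%).

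Among genes outside these lists, MFS3, a transporter of the major facilitator superfamily, stood with the glycolytic genes in the 10 largest differences of 1 sign on every plate. It had a median normalized count of 110.7 in high cells (0 to 1467) and 0 in low cells (0 to 230.98), with 3 low cells above the high median, and an adjusted difference of 3.87. The other 9 were ImpL3, Gapdh2, Pgi, PyK, Eno, Ald, Pfk, GlyP and Vha13. Thus 7 of these 10 were glycolytic enzymes. In all, 10.6% of the genes used were higher on all 9 plates and 0.507% were lower on all of them.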

How the data were processed

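Single cells were sorted into wells and read by SMART-Seq2, 1 library per cell. The authors assigned the reads to the BDGP6 cDNA with kallisto (version 0.43.0 per the labels). The deposited gene table holds estimated counts of 7279 genes in 999 cells as whole numbers without normalization, and the deposited tables of single cells give estimated counts and TPM per transcript. Of the 999 cells, 534 were high, 88 low and 298 neither, and 79 were left out. Total counts ran from 100027 to 5834773 (median 340803), which limits the precision of low genes. Intervals are Clopper-Pearson at 95%. They describe counting alone, because PCR copies of a molecule are read as separate reads. No doublet caller was run on these sorted wells.

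Transcripts were assigned to genes with the Ensembl release 115 annotation (BDGP6.54) for TPM sums and positions, and for the 17 genes so summed the estimated counts equalled the gene table within 1 read. Differences of log2(normalized count + 1) were fitted by least squares (Python 3.11.15, numpy 2.4.6, pandas 2.3.3, scipy 1.17.1) over 622 high and low cells, with a minimum of 10 reads in 20 of them (282 genes were called higher and 95 lower). The code was first run on simulated counts in which all cells shared 1 profile apart from a set of changed genes. That run lacked the group differences in ribosomal RNA share and in genes detected at equal reads, so it cannot speak to their effect. Without replicates no p-value, standard error or set test was computed, and a call is a size of 1 log2 unit. The members, gene lists and alternatives were chosen with earlier results of these data known. Named genes were the rule genes and all listed glycolytic genes, the 10 largest and 10 smallest adjusted differences of 1 sign on all 9 plates, the 3 largest of each list, and markers whose share differed by 10 points; other genes named were chosen after their values were seen. In the lists of cells other than motoneurons, none of the 2 glial (nrv2, Eaat2), 2 muscle (Mef2, Tm1), 1 hemocyte (crq), 2 epidermal and tracheal (trh, serp) and 5 other transmitter genes used was called; of 6 genes of newborn neurons 1 was called higher (jim, 1.38) and 1 lower (brat, -1.80), and sca had -0.40. No gene of the neuroblast list passed the filter. Of 14 alternatives planned and 4 added after seeing the data, the effects are given in the closing section.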

Additional observations from a re-analysis of the deposited data

How the results depend on the processing

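Counts are given as a percentage of the 5528 genes used, of which 5.10% were higher and 1.72% lower. The shares were 14.9 and 0.633% without covariates, 14.3 and 0.488% with plate only, and 12.9 and 0.507% with plate and total reads, so that dropping genes detected raised the higher calls and lowered the lower ones. Thinning to 50000 reads gave 2.51 and 0.289%, and a pseudocount of 10 gave 1.88 and 0.127%. Lower calls alone moved with matched pairs (0.778%), with low cells at 0 for all 4 genes (3.04%), with the rule applied to thinned cells (0.904%), without cells with twit (2.73%), and, added after seeing the data, without cells over 50% ribosomal RNA (5.34%) and with cells that had a Hox gene (2.91%). Leaving out 1 plate at a time gave 4.90 to 5.28% higher and 1.68 to 2.08% lower.

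The median of the other glycolytic genes was 4.95, 3.41 after thinning and 3.22 with a pseudocount of 10, and between 4.55 and 5.62 under the other settings. Without covariates, with plate only and with plate and total reads, the median was 2.77, 2.71 and 2.51 for oxidative phosphorylation genes, 1.75, 1.65 and 1.53 for ribosomal proteins, and 0.51, 0.42 and 0.36 for translation factors. In the same order RpS10b had 0.62, 0.30 and 0.24, eIF3g1 0.44, 0.37 and 0.27, and Prosbeta5 0.20, 0.14 and 0.037, all of opposite sign to the adjusted value, and eIF3m had 0.11 and, with plate only, 0.010. The pseudogene 18SrRNA-Psi:CR45861 had 0.066 without cells over 50% ribosomal RNA and 0.14 with that share as a covariate. Without those cells 34 low cells remained, and the medians of the ribosomal RNA share differed by -3.80 percentage points. The causes were not tested.

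The synaptic genes stayed at 0.45 to 1.09 and the trunk Hox difference at 17.7 to 45.5 points over all settings. Genes detected cannot be told apart from the groups, since it is both a measure of capture and a count of what a cell expresses. With 88 low cells from 1 pool, a share in that group has a wide interval.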

Other observations

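Some genes called higher outside the lists are given here. They were chosen after their values were seen and for a known role, and genes with larger differences are not named. HmgZ, an HMG box chromatin protein, had an adjusted difference of 3.51 log2 units and a median normalized count of 274.12 in high cells (0 to 1882) and 9.64 in low cells (0 to 1171). Eip75B, an ecdysone-induced nuclear receptor, had 3.37, with medians of 137.3 (0 to 1049) and 28.7 (0 to 1744), and 25 of 88 low cells exceeded the high median. Both were higher on 9 of 9 plates. The trunk factor tsh had 2.37, with 10 reads in 51.3% of high and 26.1% of low cells, and was lower on 1 plate (-0.61). Genes of neuronal signalling were among them: Octbeta2R, an octopamine receptor, had 2.46, kcc, a potassium chloride cotransporter that sets the chloride gradient, had 2.23, and Nlg3, a neuroligin, had 2.58. The lowest plate was 0.05 for Octbeta2R, 1.10 for kcc and 0.65 for Nlg3.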
